A study of Mus musculus with 6 samples.

Results

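Integrin subunits and tetraspanins were compared between 2 cell fractions of prepubertal mouse testis. The members were the genes whose symbol is Itga with numbers or letters, Itgb with 1 digit, or Tspan with a number. Cd37, Cd53, Cd82 and Cd151 were added, and Itga6, Itgb1, Itga2b and Tspan32 left out. The members numbered 43 of 18193 genes with a probe set of their own, 21 integrin subunits and 22 tetraspanins. Each gene is represented by the probe set with the highest mean, and 28 members have more than 1 probe set. Magnetic sorting had split the testis cells by Thy1, a surface glycoprotein. Each fraction, Thy1-positive (arrays P1, P2 and P3) and Thy1-negative (N1, N2 and N3), has 3 samples, and the labels describe them as independent donor preparations. Per the labels, germ cell transplantation placed more stem cell activity in Thy1-positive cells. No genotype, strain or treatment distinguishes the fractions in the labels. Both are mixtures of cells, so fewer cells of a type and less RNA per cell cannot be told apart.

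Integrins are receptors made of an alpha and a beta chain, which tie cells to the matrix or to other cells. The alpha chain largely sets the ligand, and each beta chain serves 1 or several alpha chains. Tetraspanins are small proteins that span the membrane repeatedly and gather integrins, proteases and other receptors into membrane domains. In the seminiferous tubule, stem spermatogonia rest on the basement membrane between Sertoli cells, and some integrin chains and tetraspanins serve as surface markers of these cells.

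Levels are given as log2(intensity + 1). A difference is the Thy1-positive mean less the Thy1-negative mean, and its adjusted p comes from limma over all 18193 genes, with n = 3 arrays per fraction. Markers of undifferentiated spermatogonia were higher in Thy1-positive cells (7 of 7), as were those of macrophages (11 of 11) and mast cells (5 of 5), while Sertoli cell markers were lower (7 of 8). Array N2 lay nearest to the Thy1-positive arrays on the first principal component, at -44.2 against -88.6 and -79.5 for N1 and N3 and 56.2 to 80.2 for the Thy1-positive arrays. Between 36.7% and 37.3% of the values on each array were below 3, near background, where differences are compressed.

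At an adjusted p below 0.05, Thy1-positive cells had higher values for 11 of the 43 members and lower values for 11, together 51.2%. Over all genes 33.0% were called, 18.5% higher and 14.4% lower. The median difference was 0.28 for integrins, -0.29 for tetraspanins and 0.01 for all genes. Of the integrin subunits 7 rose and 3 fell, and of the tetraspanins 4 rose and 8 fell. The fractions were fully separated, with no overlap between arrays, for 32 members (74.4%), against 51.4% of all genes. That count includes dim genes such as Itgb4, the partner of the alpha6 chain, whose fractions differed by 0.0042. With each array centred on its median, which shifted the median gene to 0.13, 20 members were higher and 12 lower, so that 62.5% of the calls were higher in place of 50%.

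**Figure D1:**
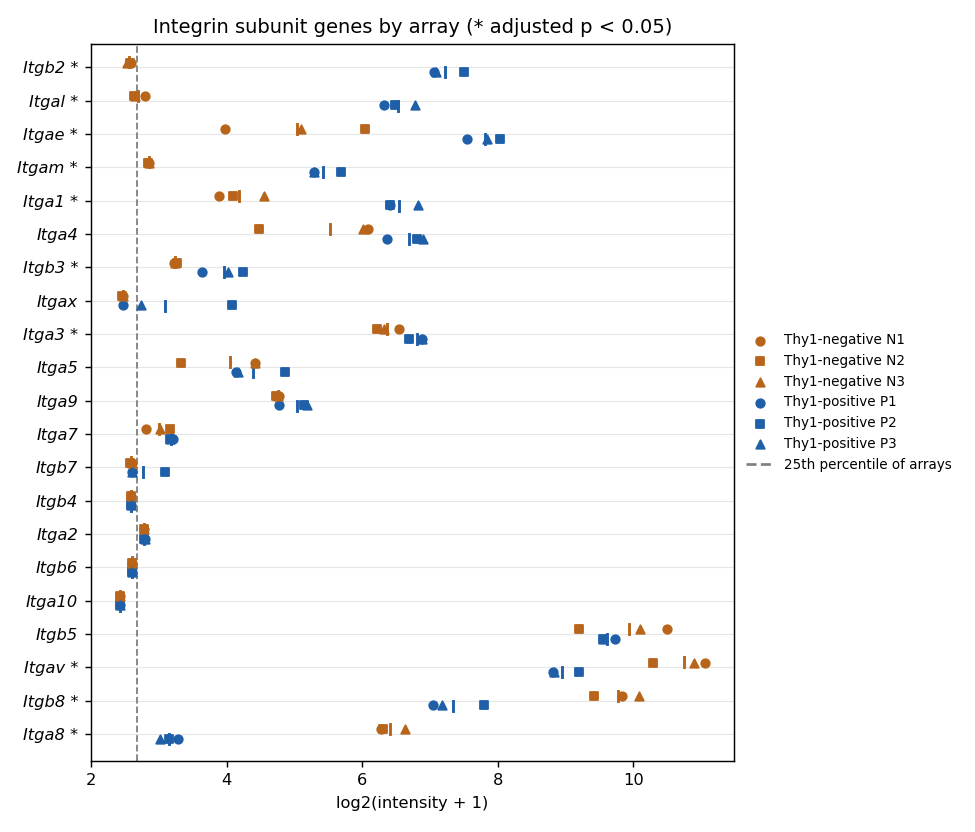
Integrin subunit genes by array, as log2(intensity + 1), with Thy1-negative arrays in brown, Thy1-positive arrays in blue, short bars at the means of 3 arrays and a dashed line at the 25th percentile of the arrays. Itgb2, Itgal and Itgam lie near that line in Thy1-negative cells, at means of 2.56, 2.69 and 2.85, and Itga8 goes from 6.41 to 3.14.

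Of the leukocyte integrin chains, 3 of 4 alpha chains (Itgal, Itgam and Itgae) and 1 of 2 beta chains (Itgb2) rose, while Itgax and Itgb7 did not pass. Over all genes 18.5% rose, and groups this small give only a rough share. Itgb2, the common beta chain of the leukocyte integrins, measured 2.58, 2.57 and 2.52 on N1, N2 and N3 and 7.06, 7.51 and 7.08 on P1, P2 and P3. All Thy1-negative arrays lay below the 25th percentile, and all Thy1-positive arrays stood far above it. The rise was at least 23.3-fold (difference 4.66, SE 0.14, adjusted p = 0.000213), with low values raised to that percentile. Itgal, the alpha chain that joins the Itgb2 chain to form LFA-1 on lymphocytes and other leukocytes, measured 2.80, 2.63 and 2.64 against 6.32, 6.48 and 6.77. Its fractions did not overlap, and it rose by 3.84 (SE 0.13, adjusted p = 0.000352). The other probe set of Itgal was dim and differed by 0.20 without passing. Itgam encodes CD11b, the alpha chain of the myeloid complement receptor, and measured 2.85, 2.84 and 2.85 against 5.29, 5.69 and 5.29. The Thy1-negative arrays were alike to 0.0046 (SD), and the gene rose by 2.58 (SE 0.12, adjusted p = 0.000868). Itgax, the alpha chain of dendritic cells and some macrophages, was at 4.08 on P2 but at 2.47 and 2.73 on P1 and P3, and did not pass (0.63, SE 0.46, adjusted p = 0.386).

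Cd53, a tetraspanin of leukocytes, measured 3.18, 2.78 and 2.77 in Thy1-negative and 9.06, 9.35 and 9.24 in Thy1-positive cells. It had the largest difference of the 43 members, 6.30 (SE 0.15, adjusted p = 0.000109), from a Thy1-negative level near background where differences are compressed. Its other probe set was dim and differed by 0.0016. Cd82, a tetraspanin known as a suppressor of metastasis and found on many cell types, measured 7.40 ± 0.23 (SD) in Thy1-negative and 8.24 ± 0.01 in Thy1-positive cells and rose by 0.84 (SE 0.12, adjusted p = 0.0102). That call was lost without P3 (0.84, adjusted p = 0.0509). Cd37, which is typical of B cells, measured 2.69, 4.47 and 2.08 on the Thy1-positive arrays and 2.07 ± 0.0031 in Thy1-negative cells, and did not pass (1.01, SE 0.66, adjusted p = 0.332).

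Other markers of blood cells moved with these genes. The 11 macrophage markers measured here, all called higher, had summed intensities of 144 to 176 in Thy1-negative and 10023 to 16192 in Thy1-positive cells, and 4 of them were at low signal in the former. The sums of the 5 mast cell markers were 25.5 to 32.8 against 1054 to 1383, and those of 5 lymphocyte markers, of which 3 were called higher, 24.3 to 25.4 against 218 to 275. No marker is at 0 in these data. The part of these cells in the rise of Itgb2, Itgal, Itgam and Cd53 was not tested.

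The 250 bases upstream of the RefSeq start sites (GRCm38.p6) are shown for a pair of leukocyte members that rose, Cd53 and Itgam, and for a pair that fell, Itga8 and Itgb8. Capitals mark GAGGAA on either strand, a sequence of letters within many binding sites of the myeloid factor PU.1. This sequence was chosen after the calls were known. The Cd53 window is chr3:106790150-106790399 on the minus strand and that of Itgam chr7:128062390-128062639 on the plus strand. Those of Itga8 and Itgb8 are chr2:12301945-12302194 and chr12:119238277-119238526, both on the minus strand.
Cd53: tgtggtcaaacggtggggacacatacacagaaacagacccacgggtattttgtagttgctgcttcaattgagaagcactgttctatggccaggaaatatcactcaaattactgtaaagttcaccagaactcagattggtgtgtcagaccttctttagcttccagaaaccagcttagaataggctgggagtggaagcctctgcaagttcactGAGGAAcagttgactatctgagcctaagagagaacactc
Itgam: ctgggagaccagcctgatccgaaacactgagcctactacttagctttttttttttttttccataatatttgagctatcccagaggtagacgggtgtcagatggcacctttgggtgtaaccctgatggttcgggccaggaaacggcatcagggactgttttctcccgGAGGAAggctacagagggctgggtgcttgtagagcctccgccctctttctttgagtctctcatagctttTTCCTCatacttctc
Itga8: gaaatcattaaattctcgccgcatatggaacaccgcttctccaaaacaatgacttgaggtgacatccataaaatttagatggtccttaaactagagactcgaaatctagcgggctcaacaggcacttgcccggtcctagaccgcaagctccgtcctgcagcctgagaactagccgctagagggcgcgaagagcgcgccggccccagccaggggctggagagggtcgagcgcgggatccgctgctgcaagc
Itgb8: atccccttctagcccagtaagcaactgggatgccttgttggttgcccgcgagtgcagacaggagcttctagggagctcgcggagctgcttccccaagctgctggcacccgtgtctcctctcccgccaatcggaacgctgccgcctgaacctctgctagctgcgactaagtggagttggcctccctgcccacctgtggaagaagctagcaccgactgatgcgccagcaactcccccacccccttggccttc
The Cd53 window holds 1 match, which begins 39 bases before the start site, and the Itgam window holds 2, at 84 and 15 bases. The windows of Itga8 and Itgb8 hold none of these letters. Itgav, the other integrin chain that fell, does have a window with GAGGAA, as do the falling Tspan6, Tspan9 and Tspan31. The contrast between the printed windows thus depends on the genes shown. Their share of G and C was 45.2% for Cd53, 49.6% for Itgam, 56.4% for Itga8 and 62.4% for Itgb8. Among all 32851 such RefSeq windows, 23.3% hold GAGGAA, and by gene 25.9% have at least 1 window with it. These promoter windows cover 36 of the 43 members, of which 12 (33.3%) have the letters, namely 5 of 7 that rose, 4 of 11 that fell and 3 of 18 that were not called. GGGCGG and TATAAA were searched as well. GGGCGG was found for 16 of the 36 (44.4%, against 35.4% of all genes). By call these were 4 of 7 that rose, 4 of 11 that fell and 8 of 18 not called. TATAAA was found for 1 of the 36 (2.78%, against 14.3% of all genes). A match of letters is a description and not a binding site, and many windows with a match belong to genes that fell or were not called.

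Itgae and Itga1 also rose. Itgae encodes CD103, which joins the Itgb7 chain to bind E-cadherin, and measured 3.98, 6.04 and 5.10 against 7.54, 8.03 and 7.84. The fractions did not overlap, although the Thy1-negative arrays lay far apart. It rose by 2.76 (SE 0.57, adjusted p = 0.0239), and its other probe set differed by 2.36. The call was lost when N3, P1, P2 or P3 was left out, with differences of 2.79, 2.89, 2.65 and 2.75. Its partner Itgb7 measured 2.59, 2.58 and 2.60 against 2.60, 3.09 and 2.60, with P2 alone above the rest, and did not pass (adjusted p = 0.468). Cdh1, the gene of E-cadherin, measured 5.39, 6.34 and 6.19 against 9.70, 8.30 and 9.17 and rose by 3.08 (SE 0.47, adjusted p = 0.0113), a call lost without P3 (3.03, adjusted p = 0.0551). The 6 germ cell markers, of which 4 were called higher, had list means of 9.67, 11.15 and 10.11 on N1, N2 and N3. Their means in Thy1-positive cells were 12.13 to 12.14. Itgae had that order over the Thy1-negative arrays, and so did the list means of mast cells, undifferentiated spermatogonia and peritubular myoid cells. These were 2.60, 2.89 and 2.77 for mast cells and 7.62, 8.46 and 7.93 for myoid cells. The other cell marker lists had other orders, so the order is not particular to germ cells. Whether Itgae belongs to any of these cell types was not tested.

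Itga1, a collagen-binding chain, measured 3.89, 4.09 and 4.55 against 6.42, 6.42 and 6.81 and rose by 2.37 (SE 0.22, adjusted p = 0.00417). The call held when any 1 array was left out, with differences of 2.23 to 2.56. The other probe set of Itga1, dimmer at a mean of 3.54, differed by 0.02 without passing. The other collagen-binding chains measured, Itga2 and Itga10, were near background in both fractions. Itga3, a laminin-binding chain of epithelia, measured 6.36 ± 0.16 (SD) against 6.81 ± 0.11 and rose by 0.45 (SE 0.11, adjusted p = 0.0335). Itgb3, which pairs with Itgav and with the platelet chain Itga2b, measured 3.24 ± 0.02 against 3.96 ± 0.31 and rose by 0.72 (SE 0.17, adjusted p = 0.0329). Both calls are weak. Itga3 failed without N2 (0.39), N3 (0.44), P1 (0.42) or P3 (0.42), and Itgb3 passed only without P1 (0.88) among the 6 fits that left out 1 array. The other probe set of Itgb3 differed by 0.62 and passed over all probe sets (adjusted p = 0.0311). Those of Itga3 differed by 0.34 and 0.33 and did not pass. Itgb3 was dim throughout, and among platelet markers Pf4 rose at least 290.0-fold while the other 3 measured were at low signal in both fractions.

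The integrin chains that fell were Itga8, Itgb8 and Itgav. Of the alpha chains that bind the RGD sequence of matrix proteins 2 of 3 fell, and of the 4 beta chains that pair with Itgav 1 fell (Itgb8) and 1 rose (Itgb3). Over all genes 14.4% fell and 18.5% rose, and these groups are small. Itga8, a chain of mesenchymal and smooth muscle cells whose ligand is nephronectin, measured 6.28, 6.31 and 6.64 in Thy1-negative and 3.27, 3.15 and 3.01 in Thy1-positive cells. It fell 9.59-fold (-3.26, SE 0.13, adjusted p = 0.000506), to a Thy1-positive level close to background, where differences are compressed. Its other probe set, which was dim, differed by -1.43. Itgb8, which with the Itgav chain releases active TGF-beta from its latent form, measured 9.83, 9.42 and 10.08 against 7.05, 7.80 and 7.18. No array crossed over, and it fell 5.41-fold (-2.44, SE 0.28, adjusted p = 0.00636). Itgav measured 11.05, 10.28 and 10.89 against 8.82, 9.19 and 8.82, with N2 the lowest and P2 the highest of their fractions. It fell 3.48-fold (-1.80, SE 0.25, adjusted p = 0.00902), and a further probe set above the median intensity differed by -0.75 without passing. All 3 decreases held when any 1 array was left out.

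Itgb5, another partner of Itgav, measured 10.49, 9.20 and 10.10 against 9.73, 9.55 and 9.55. Its fractions overlapped through N2, and it did not pass (-0.32, 95% interval -1.26 to 0.63, adjusted p = 0.582). Without N2 it was called lower (-0.68, adjusted p = 0.0348). Itga5, the classic fibronectin chain, did not pass either (0.33, SE 0.40, adjusted p = 0.608), and its value rested on single arrays, at -0.03 without N2, 0.10 without P2 and 0.52 without N1 or N3. Itga4 (1.17, SE 0.51, adjusted p = 0.156) and Itga9 (0.28, SE 0.12, adjusted p = 0.160), chains that bind VCAM1 and other matrix or surface proteins, were not called, although their arrays did not overlap. Itga4 differed by 0.64 without N2, and Itga9 was called higher without P1 (0.41, adjusted p = 0.00858). The 2 other probe sets of Itga9 above the median intensity pointed the other way, at -0.71 and -1.22. Itga7, a laminin-binding chain of muscle, measured 2.99 ± 0.17 (SD) against 3.18 ± 0.03. Itgb4, Itgb6, Itga2, Itga10, Itgb7, Tspan1 and Tspan10 had means below 3 in both fractions and differed by at most 0.17. Their levels are near background, so the arrays say little about them.

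The chains left out by the rule give the context of these pairs. Itgb1, the partner of many alpha chains named here, measured 11.24 ± 0.20 (SD) against 11.20 ± 0.04 and did not pass (-0.04, 95% interval -0.32 to 0.24). Itga6 fell by 0.67 on the log2 scale (adjusted p = 0.00957).

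**Figure D2:**
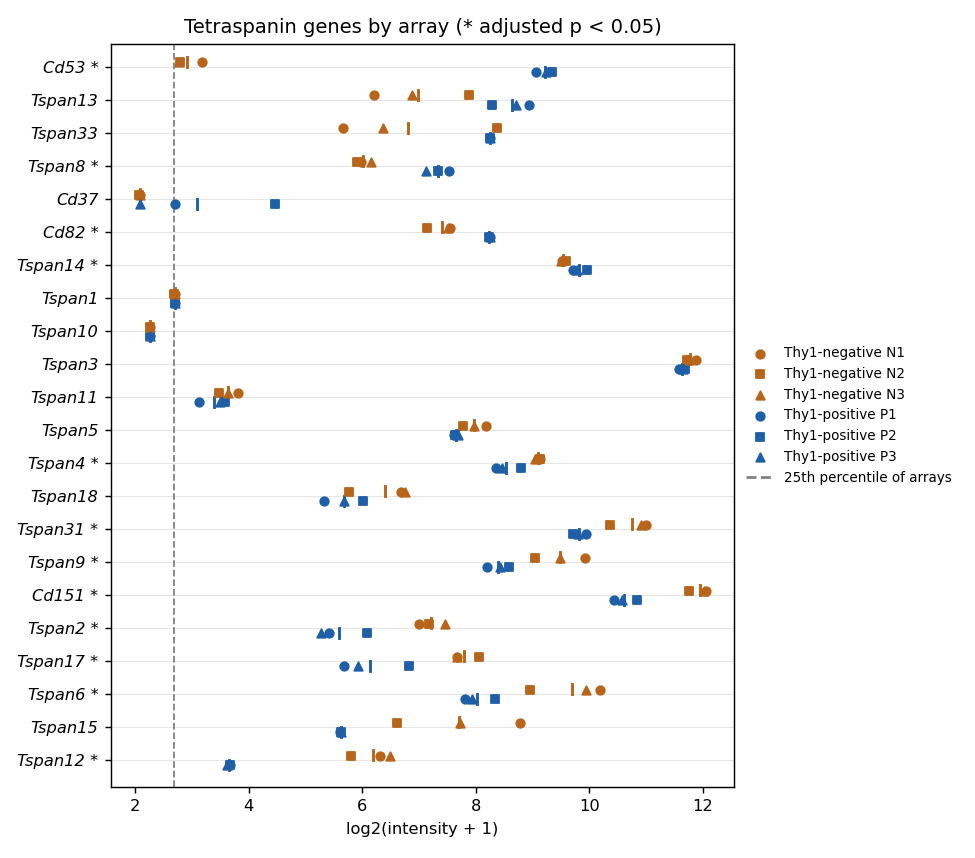
Tetraspanin genes by array, as log2(intensity + 1), with the same colours, bars and dashed line as for integrins. Cd53 rises from 2.91 to 9.22 (means of 3 arrays), while Tspan12 at the bottom goes from 6.20 to 3.65 and N2 stands apart in Tspan13, Tspan33 and Tspan15.

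Among tetraspanins without a leukocyte role, Tspan8 rose. This surface glycoprotein, used to divide stem from progenitor spermatogonia, measured 5.98, 5.90 and 6.15 against 7.53, 7.33 and 7.11. The 3 Thy1-positive arrays stood clear of the others, and the rise was 2.49-fold (1.32, SE 0.13, adjusted p = 0.00483). It held without any 1 array (1.22 to 1.43), while the other 4 probe sets of the gene were dim and differed by at most 0.06. Tspan14, one of the tetraspanins that carry the protease ADAM10 to the surface, measured 9.54 ± 0.05 (SD) against 9.81 ± 0.13 and rose by 0.27 (SE 0.07, adjusted p = 0.0453). It was called in 1 of the 6 fits that left out an array.

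The tetraspanins that fell were mostly expressed in both fractions. Tspan12, a partner of the norrin receptor Frizzled-4, measured 6.32, 5.79 and 6.48 in Thy1-negative and 3.67, 3.67 and 3.62 in Thy1-positive cells. It fell 5.84-fold (-2.55, SE 0.19, adjusted p = 0.00272) and held without any 1 array. Cd151, which binds laminin-binding integrins tightly, measured 12.05, 11.76 and 12.02 against 10.44, 10.84 and 10.57. It fell 2.51-fold (-1.33, SE 0.14, adjusted p = 0.00528) and also held without any 1 array. Of its 3 other probe sets above the median intensity, 1 differed by -1.21 and passed over all probe sets, and the others differed by -0.69 and -0.68 and did not. Without probe sets ending in _x_at or _s_at the gene was not called (-0.68, adjusted p = 0.0908).

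Tspan6, Tspan17, Tspan2 and Tspan9 fell as well, with less stable calls. Tspan6, a tetraspanin described in exosome sorting, measured 10.18, 8.95 and 9.95 against 7.81, 8.34 and 7.93 (-1.67, SE 0.38, adjusted p = 0.0316), and its other probe set differed by -2.29. Tspan17, which carries ADAM10 like Tspan14, measured 7.67, 8.05 and 7.67 against 5.67, 6.83 and 5.92 (-1.66, SE 0.35, adjusted p = 0.0250). P2 was the Thy1-positive array closest to the Thy1-negative level for both genes.

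Tspan2, best known from oligodendrocytes, measured 7.00, 7.18 and 7.45 against 5.41, 6.08 and 5.27 (-1.62, SE 0.26, adjusted p = 0.0133). Tspan9, described in platelets, measured 9.92, 9.04 and 9.48 against 8.19, 8.57 and 8.43 (-1.08, SE 0.26, adjusted p = 0.0352). The other probe set of Tspan9 above the median pointed the other way (0.90) without passing. Tspan31 (-0.94, SE 0.20, adjusted p = 0.0253) and Tspan4 (-0.56, SE 0.13, adjusted p = 0.0335) fell by less. Of these 6 genes Tspan2 was called in 3 of the fits that left out 1 array and the others in 1 each. The count of lower tetraspanins was accordingly 3 without N1, 9 without N2, 2 without N3, 2 without P1, 5 without P2 and 2 without P3, against 8 with all arrays. For rising integrins it was 4 without N3 or P3, against 7, and for rising tetraspanins 2 without P3, against 4.

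**Figure D3:**
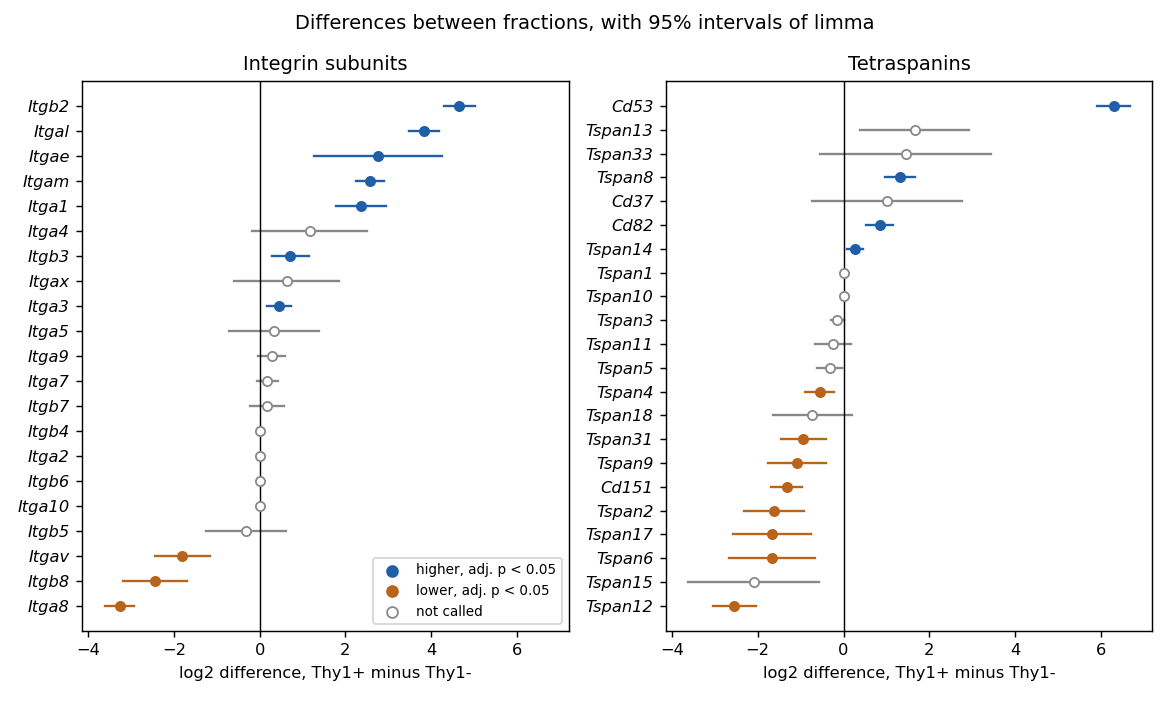
Log2 difference (Thy1-positive minus Thy1-negative) of each member with the 95% interval of limma, filled where the adjusted p is below 0.05 (blue higher, brown lower) and open where it is not. Called integrins run from 4.66 (Itgb2) to -3.26 (Itga8) and called tetraspanins from 6.30 (Cd53) to -2.55 (Tspan12), and the open points with wide intervals include Tspan33 and Tspan15.

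Of the 21 members not called, 10 (47.6%) did not overlap between fractions, against 27.5% of all 12197 genes not called. Among the 10 were Itgb4, Itgb7, Itgax and Cd37, at low signal in Thy1-negative cells, where the gap between fractions can be tiny. For Itgb7 the nearest arrays were at 2.598 (N3) and 2.600 (P1). An unadjusted p below 0.05 was found for 3 of the 21 (14.3%), near the 15.9% of all genes not called. These were Tspan13, Tspan15 and Tspan5, and their arrays are given because their values stood out after the fit. Tspan13 measured 6.20, 7.87 and 6.87 against 8.94, 8.29 and 8.71 (1.66, SE 0.48, adjusted p = 0.0589), and its other probe set, at 1.12, passed over all probe sets. Tspan15, which carries ADAM10, measured 8.78, 6.62 and 7.72 against 5.60, 5.62 and 5.62 (-2.09, SE 0.58, adjusted p = 0.0521). N2 was the closest Thy1-negative array in both genes, and both were called without it, at 2.11 (adjusted p = 0.0137) and -2.64 (adjusted p = 0.0109).

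Tspan5, which also carries ADAM10, measured 7.97 ± 0.20 (SD) against 7.64 ± 0.03 with the probe set kept (-0.33, SE 0.11, adjusted p = 0.0837). Its other probe set, of similar intensity, measured 8.82 against 6.52 and passed over all probe sets (-2.31, SE 0.29, adjusted p = 0.0106), so the probe sets of this gene differ in size by a wide margin. Tspan33, a further ADAM10 carrier, was at 5.66, 8.38 and 6.36 against 8.25, 8.25 and 8.25, with N2 above every Thy1-positive array, and was called without N2 (2.24, adjusted p = 0.00651). Tspan18 (-0.73, SE 0.35), Tspan11 (-0.25, SE 0.16) and the broadly expressed Tspan3 (-0.14, SE 0.06) were not called. Without N2, Tspan18 (-1.05, adjusted p = 0.0388) and the kept probe set of Tspan5 (-0.42, adjusted p = 0.0203) were called lower. Tspan11 differed by -0.11 without P1 and by -0.16 without N1.

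Array N2 recurred in these values. Of the 17 members above background with a negative difference, N2 was the lowest Thy1-negative array in 13, among them Itgav, Itgb8, Itgb5, Tspan6, Tspan12 and Tspan15. That count was not taken over all genes, so it cannot be called particular to the members. Over all genes, N2 also lay nearest to the Thy1-positive arrays on the first principal component. The 8 Sertoli cell markers had list means of 9.93, 9.49 and 9.82 on N1, N2 and N3 and 5.34, 6.86 and 5.48 on P1, P2 and P3, and their sums ranged from 13938 to 20632 against 607 to 2399. Not all followed the mean: Rhox5 went the other way without passing (1.70, adjusted p = 0.0829). Rhox5 (6.09) and Cldn11 (11.88) were highest on N2 among the Thy1-negative arrays. The 6 peritubular myoid markers, of which 4 fell, had means of 7.62, 8.46 and 7.93 against 5.75, 6.09 and 5.75, with N2 the highest, and sums of 12890 to 14747 against 1726 to 2219. Of 4 Leydig cell markers 2 fell, with sums of 4801 to 9694 against 2309 to 3732. None of these markers is at 0, and low signal in Thy1-positive cells was seen for 2 Sertoli markers and 1 myoid marker. The part of these cell types in the falling integrins and tetraspanins was not tested.

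**Figure D4:**
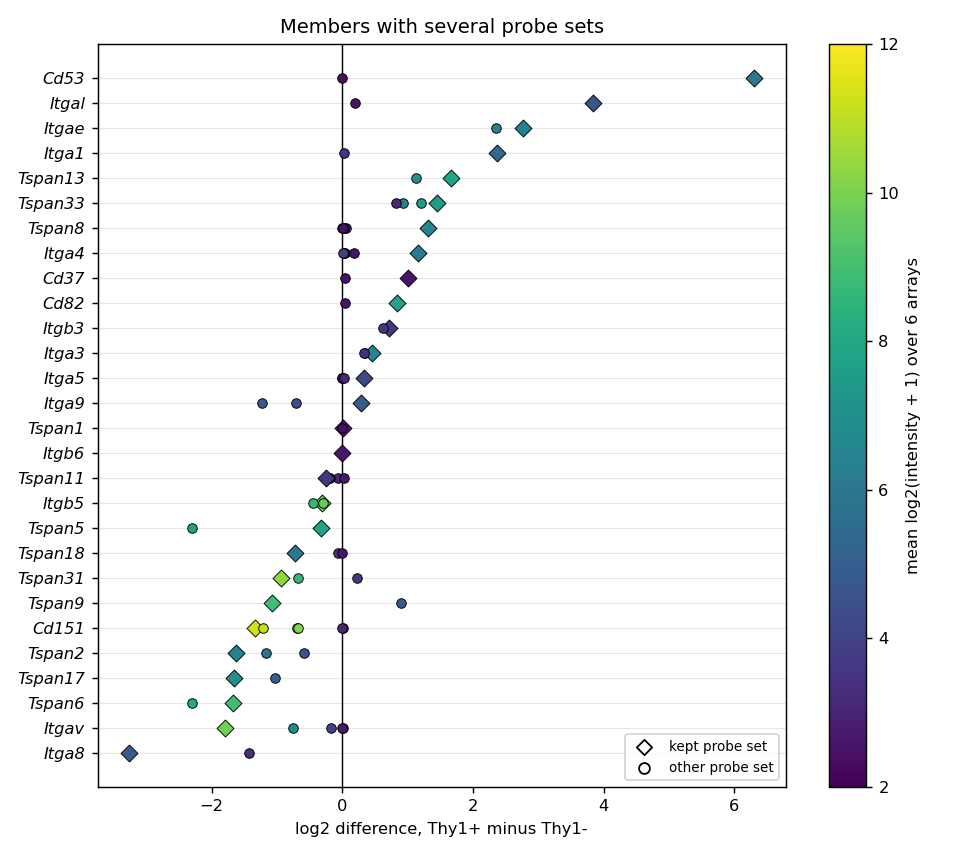
Log2 difference of every probe set for the 28 members with more than 1, with diamonds for the probe set kept, circles for the others and colour for the mean log2(intensity + 1) over 6 arrays. Dark circles near 0 are dim probe sets, Tspan5 has bright probe sets at -0.33 and -2.31, and Tspan9 and Itga9 have probe sets on both sides of 0.

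Probe sets of the same gene mostly pointed the same way where they were bright. Of 20 further probe sets above the median intensity, 11 belonged to called members, and 10 of these had the sign of the probe set kept, the exception being Tspan9. Of the 11, 3 passed over all probe sets (Cd151, Itgae and Tspan6). Exactly equal intensities on arrays of 1 fraction occurred in 6 members (14%), among them Tspan12, Itga1 and Itgam, against 6.83% of all genes, and such ties narrow the spread on which the test rests.

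**Figure D5:**
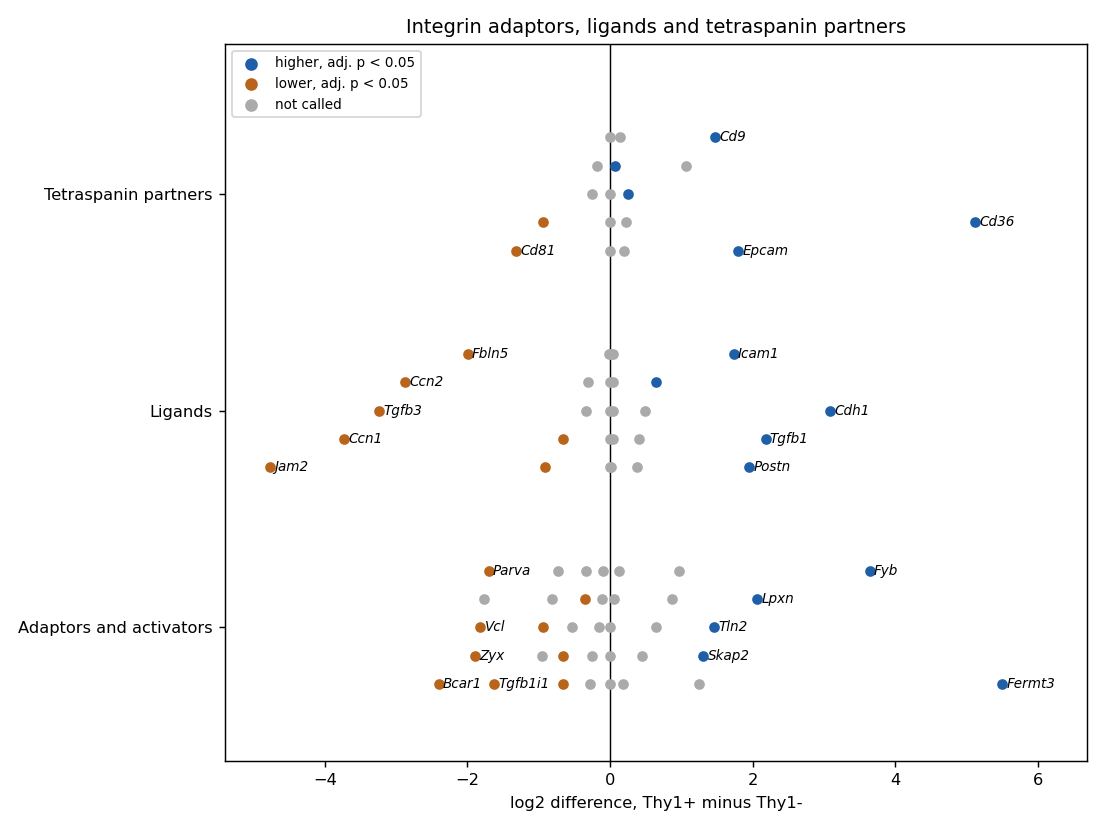
Log2 difference of the genes that work with integrins and tetraspanins, by list, blue where higher and brown where lower at an adjusted p below 0.05 and grey where not called. Vertical scatter within a list has no meaning, and Fermt3 (5.50), Jam2 (-4.77) and Cd36 (5.13) are the called genes farthest from 0.

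Adaptors and activators at the integrin tail included genes that moved in either direction. Of 36 measured of 40 listed, 5 rose (13.9%, against 18.5% of all genes) and 9 fell (25%, against 14.4%), with a median difference of -0.14. Those with the largest rise were Fermt3, the kindlin of blood cells (5.50, SE 0.11, adjusted p = 7.86e-05), the leukocyte adaptor Fyb (3.64, SE 0.30, adjusted p = 0.00329) and Lpxn, a paxillin relative of leukocytes (2.06, SE 0.25, adjusted p = 0.00697). Fermt3 measured 3.49, 3.60 and 3.28 against 9.01, 8.81 and 9.04. The kindlin of most other cells, Fermt2, was not called (0.45, SE 0.20, adjusted p = 0.157). Talins activate integrins from inside the cell, and Tln2 rose (1.47, SE 0.27, adjusted p = 0.0190) while Tln1 was not called (-0.53, SE 0.22, adjusted p = 0.140). The largest decreases were those of focal adhesion proteins, the scaffold Bcar1 (-2.40, SE 0.23, adjusted p = 0.00423), Zyx (-1.90, SE 0.27, adjusted p = 0.0102) and vinculin, Vcl (-1.82, SE 0.11, adjusted p = 0.00145). The call of Zyx was lost without P3 (-1.88, adjusted p = 0.0508). The counts were 3 and 4 without P3, and 3 rose without N1 or N3.

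Of integrin ligands, 28 of 32 listed were measured. Of these 5 rose (17.9%, near the 18.5% of all genes) and 7 fell (25%, against 14.4%), with a median of 0.01. Besides Cdh1, the increases were led by Tgfb1 (2.18, SE 0.17, adjusted p = 0.00272), whose latent form binds Itgav integrins, and the matrix protein gene Postn (1.96, SE 0.20, adjusted p = 0.00505). Icam1, a ligand of the Itgal and Itgam integrins, also rose (1.73, SE 0.37, adjusted p = 0.0257). The adhesion molecule gene Jam2 measured 10.77, 9.67 and 10.46 against 4.99, 6.62 and 4.97 and fell 27.3-fold (-4.77, SE 0.59, adjusted p = 0.00737). Ccn1, a matricellular ligand of Itgav integrins, fell 13.3-fold (-3.73, SE 0.47, adjusted p = 0.00764), and Tgfb3 9.49-fold (-3.25, SE 0.72, adjusted p = 0.0291), although Tgfb3 was called only without P2 (-4.00) among fits without 1 array. Npnt, the ligand of the Itga8 chain, did not pass and was at 7.87 on N2 against 4.66 and 4.94 on N1 and N3. The lower count was 4 without N1, N3 or P3, and the higher count 3 without P1 or P3.

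Partners of tetraspanins, with tetraspanins named otherwise, had 5 of 17 higher (29.4%, against 18.5% of all genes) and 2 lower (11.8%, near the 14.4% of all genes), with a median of 0.06. One of the 5, the uroplakin gene Upk1b, was near background, at 2.94 against 3.00 (0.06, SE 0.01, adjusted p = 0.0171). The scavenger receptor Cd36 rose by 5.13 (SE 0.10, adjusted p = 7.28e-05) from 3.41 to 8.53, Cd9, a tetraspanin and known surface marker of stem spermatogonia, by 1.47 (SE 0.10, adjusted p = 0.00241) and the epithelial adhesion molecule Epcam by 1.80 (SE 0.48, adjusted p = 0.0480). The Epcam call was lost without N1, N3, P1, P2 or P3 (1.43 to 2.04). The tetraspanin Cd81 fell by 1.32 on the log2 scale (SE 0.16, adjusted p = 0.00683). The protease Adam10 measured 11.93, 11.64 and 11.82 against 10.95, 10.79 and 10.82 and fell 1.93-fold (-0.95, SE 0.09, adjusted p = 0.00470). Of its 6 carrier tetraspanins Tspan14 rose, Tspan17 fell, and Tspan5, Tspan15, Tspan33 and Tspan10 were not called. The higher count of this list was 2 without N1, N3, P1 or P3 and 3 without P2. Fzd4 (-0.26, SE 0.11) and Ndp, which encode the receptor and ligand that work with Tspan12, were not called, Ndp being near background.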

How the data were processed

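RNA of 6 samples of mouse testis was measured on Affymetrix arrays, 1 array per sample. The authors deposited linear intensity values, 1 for each probe set on each array. Per the submitters' processing notes the tool was GCRMA, whereas the labels describe scaling by Affymetrix software, and the labels do not settle which of them produced the values. Of 45037 probe sets that are not Affymetrix controls, 34945 have 1 gene symbol in the supplied platform table, 932 several and 9160 none. All 43 member symbols matched the supplied table of RefSeq genes by Entrez identifier.

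The analysis used log2(intensity + 1), without filter or further normalization. For each of 18193 genes the probe set with the highest mean was kept. Fractions were compared with limma 3.58.1 in R 4.3.3 (lmFit and eBayes, fraction as the single term, 2-sided, Benjamini-Hochberg adjustment over all genes, threshold 0.05), checked on simulated data. SD is between arrays of a fraction, SE is limma's, and the number of arrays limits the precision. Low signal means a fraction mean below the arrays' 25th percentile, which averaged 2.68. The members and lists were chosen with earlier results of these data known. Every member is named. Array values are given for called members with a difference of at least 1 in size, at most 8 per direction and family, and otherwise for members singled out after their values were seen. From each list up to 3 called genes per direction are named, and others as background to a member. Alternatives were other scalings, a filter, a floor, a pseudocount of 16, a replicate block, another variance model, other choices of probe set and leaving out each array. Promoter windows came from a separate RefSeq promoter table (GRCm38.p6), which holds 36 of the members, and protein sequences were not used here.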

Additional observations from a re-analysis of the deposited data

How the results depend on the processing

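Over 17 alternatives no call of a member changed sign. The same held for the up to 3 called genes per direction with the largest difference in each list. Other named genes, such as Tln2, Icam1 and Upk1b, were not followed over the alternatives. Of the 22 called members, 11 were called in all 6 fits that left out 1 array, and 7 of these (Itgb2, Itgal, Itgam, Itga1, Itga8, Cd53 and Tspan12) in each of the other alternatives that tested them, while 7 were called in 1 of those 6 fits. Leaving out 1 array gave 4 to 6 higher integrins, 2 to 5 higher and 2 to 9 lower tetraspanins, 1350 to 4273 higher and 1163 to 3008 lower genes of all, 3 to 7 higher and 4 to 11 lower adaptors, 3 to 5 higher and 4 to 6 lower ligands and 2 to 6 higher tetraspanin partners.

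With arrays centred on their median, 13 integrins, 7 tetraspanins, 13 adaptors, 18 ligands, 10 tetraspanin partners and 10436 genes of all were higher. The share of higher calls over all genes went from 56.2% to 79.7%. This shift reaches dim probe sets that hardly vary, such as those of Itgb4, Itgb6 and Tspan10, which were called only there. Quantile normalization left 3 higher tetraspanin partners.

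With the replicate number as a block (replicate block), 4 integrins were higher and 1 lower, 1 tetraspanin higher and 1 lower, 2 adaptors higher and 2 lower, 1 ligand higher and 2 lower, 2 tetraspanin partners higher and 1 lower, and 931 genes of all higher and 548 lower. The labels do not say that the numbers pair the samples. Same-numbered arrays had deviations from their group means correlated at -0.16, -0.17 and -0.04 over genes. These correlations cannot decide on pairing, because fractions sorted from a shared preparation could deviate in opposite directions. N2 (-44.2) and P2 (56.2) were each the array of their fraction nearest to the other fraction on the first principal component. Signal over background limits the dim genes named above, and 3 arrays per fraction limit all calls.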
